A study of Mus musculus with 8 samples.

Results

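The regions described here had a listed ATAC-seq peak in fibroblasts, at day 10 of reprogramming and in embryonic stem cells, and lacked one at day 5 only. ATAC-seq marks accessible chromatin, and the regions were chosen by their peaks: the deposited peaks of 4 cell groups were merged where they lay within 400 bp of each other, and a merged region was kept when it held a peak of the mouse embryonic fibroblasts (MEFs), of the OSKM cells at day 10 and of the embryonic stem cells (ESCs), and no peak of the OSKM cells at day 5. Of 101701 merged regions, 19455 held a MEF and an ESC peak and are called common regions below, and 1478 of these, or 7.60% (95% Wilson interval 7.23 to 7.98), met the rule. The other common regions had a peak on both OSKM days (14071), lacked one only at day 10 (720), or lacked one on both days (3186).

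The study asked how the H3K27 demethylase JMJD3 acts in the reprogramming of fibroblasts to pluripotent cells, and the ATAC-seq arm holds 8 libraries, 2 for each of 4 groups. MEFs and the cells of both OSKM days were C57BL/6J-OG2, a strain with an Oct4-GFP reporter, and were wild type for the Jmjd3 knockout. The OSKM cells were MEFs infected with pMXs retroviruses for OCT4, SOX2, KLF4 and c-MYC plus the FLAG control vector, grown with 50 µg/ml vitamin C in ESC medium, and collected 5 or 10 days after the first infection. ESC replicate 1 was labelled C57Bl6J and ESC replicate 2 OG2. The labels placed the ESCs on feeder cells in serum with LIF while the methods describe 2i/L medium on gelatin, so medium and cell type cannot be told apart in a comparison with ESCs. Cultures of infected cells are mixtures, and fewer cells with an open site cannot be told apart from less opening per cell. Each group was deposited as 1 list of peaks shared by its replicates, so no value below has a replicate error, and intervals cover counting error only. Open means here that a peak was listed. A peak list gives no read depth, so a missing peak is no measure of closing. The lists held 56514 peaks for MEFs, 36219 for day 5, 35226 for day 10 and 48486 for ESCs. As a check of the labels, all 8 fibroblast markers looked up had a MEF peak within 1 kb of a start site and all 8 pluripotency markers an ESC peak, while 6 of the 8 fibroblast markers also had an ESC peak and 4 of the 8 pluripotency markers a MEF peak. The part of feeder cells was not tested. The day 5 and the day 10 list each had a peak at the same 7 fibroblast and the same 3 pluripotency markers. The check therefore could not tell these 2 lists apart.

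ATAC-seq peaks fall mostly at promoters, enhancers and sites bound by CTCF, the zinc-finger protein that anchors chromatin loops. Promoters of genes that every cell uses stay open in nearly all cell types, often over CpG-rich DNA bound by ETS, NRF1 and YY1 factors. In fibroblasts, AP-1, TEAD and RUNX factors hold many enhancers open, and the reprogramming factors are known to close such sites while KLF4, with its GC-rich motif, and SOX2 and OCT4 bind others.

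Members with each of 4 motifs are shown with the motif in capitals, since the motif content of the members is compared below. For each motif these are the 2 with the highest support, the lowest of a member's 3 peak height percentiles, among windows with no annotated exon inside. The ETS windows shown have low support, at percentiles 38.4 and 31.5. Each window is 200 bp long and centred on the widest MEF peak, and all are mm10, plus strand. A capital stretch may be the motif or its reverse complement.
CTCF match near T, chr17:8468787-8468986: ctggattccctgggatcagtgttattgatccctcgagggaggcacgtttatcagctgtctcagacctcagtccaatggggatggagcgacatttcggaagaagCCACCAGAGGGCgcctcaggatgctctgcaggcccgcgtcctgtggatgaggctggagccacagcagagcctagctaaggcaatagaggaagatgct
CTCF match in Palm2, chr4:57673306-57673505: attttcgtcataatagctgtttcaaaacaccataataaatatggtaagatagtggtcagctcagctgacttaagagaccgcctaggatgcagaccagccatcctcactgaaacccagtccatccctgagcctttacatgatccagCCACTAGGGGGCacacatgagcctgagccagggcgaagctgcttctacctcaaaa
AP-1 match near Ripk4, chr16:97778658-97778857: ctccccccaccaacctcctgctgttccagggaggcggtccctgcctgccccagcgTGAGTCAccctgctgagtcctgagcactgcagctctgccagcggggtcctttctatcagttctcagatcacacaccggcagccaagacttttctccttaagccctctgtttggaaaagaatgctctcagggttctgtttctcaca
AP-1 match in Pknox2, chr9:36933893-36934092: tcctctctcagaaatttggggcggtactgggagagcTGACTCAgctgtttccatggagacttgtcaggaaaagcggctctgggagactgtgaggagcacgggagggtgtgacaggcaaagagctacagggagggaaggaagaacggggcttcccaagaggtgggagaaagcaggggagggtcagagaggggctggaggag
KLF match in Gng7, chr10:80961271-80961470: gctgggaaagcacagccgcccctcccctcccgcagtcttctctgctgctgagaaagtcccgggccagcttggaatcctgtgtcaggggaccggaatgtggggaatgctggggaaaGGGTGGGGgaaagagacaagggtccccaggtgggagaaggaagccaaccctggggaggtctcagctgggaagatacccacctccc
KLF match near 1700012B07Rik, chr11:109860413-109860612: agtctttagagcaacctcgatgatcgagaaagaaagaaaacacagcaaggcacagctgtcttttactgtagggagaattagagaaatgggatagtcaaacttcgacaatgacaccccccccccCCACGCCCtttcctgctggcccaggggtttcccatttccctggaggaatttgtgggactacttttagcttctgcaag
ETS match at Dnah7a, chr1:53706797-53706996: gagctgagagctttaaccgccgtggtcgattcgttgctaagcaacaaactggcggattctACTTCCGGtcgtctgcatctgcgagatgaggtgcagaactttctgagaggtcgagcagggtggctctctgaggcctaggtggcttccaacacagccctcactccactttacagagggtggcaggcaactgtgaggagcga
ETS match near Ccn2, chr10:24625141-24625340: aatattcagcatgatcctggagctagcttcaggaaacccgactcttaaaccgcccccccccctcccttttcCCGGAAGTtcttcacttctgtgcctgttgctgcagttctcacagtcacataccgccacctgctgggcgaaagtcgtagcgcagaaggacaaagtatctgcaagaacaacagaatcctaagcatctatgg
The first CTCF window lay between genes, 33209 bp from the nearest start site, which belongs to T (brachyury), and the second in an intron of Palm2. Neither AP-1 window was near a promoter. The nearest start sites were those of Ripk4, a kinase of keratinocyte differentiation, at 14505 bp, and Pknox2, a homeobox gene, at 52907 bp inside its own intron. The first KLF window lay in an intron of Gng7, 30094 bp from Gadd45b, a stress-response gene, and the second between genes. The Dnah7a window was the only one of the 8 within 1 kb of a start site. The second ETS window lay 29281 bp from Ccn2, the connective tissue growth factor gene. It also held the CTCF core, which is printed there in small letters. Fold enrichment at the CTCF region near T was 3.64 in MEFs, 3.78 at day 10 and 4.03 in ESCs, and at the Palm2 region 3.61, 3.99 and 4.06. Both lie above the median peaks of these lists, which had a fold enrichment of 3.32 in MEFs, 3.36 at day 10 and 3.48 in ESCs.

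The members were mostly low peaks. As these values come from the peaks that chose the members, they are given as a description and without a test. Each peak was placed by its fold enrichment within its own list, where the 100th percentile is the highest peak. The median member stood at the 39.3rd percentile in MEFs (fold enrichment 3.11), at the 31.6th at day 10 (3.06) and at the 40.5th in ESCs (3.30). Regions open on both OSKM days stood at 71.5, 64.8 and 63.8 in the same 3 lists. Neither-day regions stood at 33.2 in MEFs and 38.6 in ESCs, so low peaks were not particular to the members. Within the members, the day 10 peak was the weakest of the 3 in 600 regions, the MEF peak in 441 and the ESC peak in 437. All 3 peaks lay below the 50th percentile in 544 members (36.8%) and at or above it in 127 (8.59%).

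**Figure D1:**
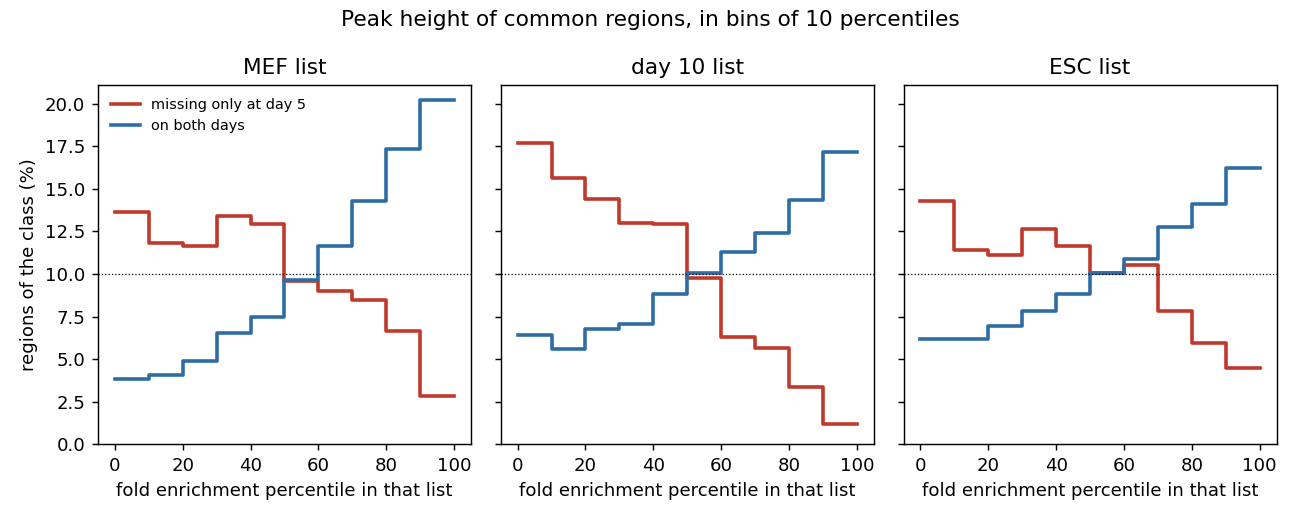
Share of regions (%) in each bin of 10 percentiles of fold enrichment, in the MEF, day 10 and ESC lists, for the 1478 members (red) and the 14071 regions open on both OSKM days (blue); the dotted line marks 10%, the level of the list as a whole. The members thin out towards high peaks in all 3 lists, most steeply at day 10, while the both-day regions become more frequent.

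The 3 peaks of a member usually marked the same DNA. A stretch lay under the MEF, the day 10 and the ESC peak at once in 1313 members (88.8%), with a median of 310 bp among these, and 1465 members held exactly 3 peaks. Members were 314 to 4810 bp wide with a median of 957 bp. Most were far from any day 5 peak: the median distance was 16940 bp, 6 members had a day 5 peak within 1 kb and 187 (12.7%) within 5 kb. This was not particular to the members. Neither-day regions had a median distance of 18791 bp, with 12.0% within 5 kb. Other regions without a day 5 peak had 19964.5 bp and 13.0%. With few members close to a day 5 peak, the choice of 400 bp decided few of them. The members closest to a day 5 peak lay 489 bp (chr14:99052060-99052396), 625 bp (chr7:144895443-144896861) and 793 bp (chr15:84853654-84856814) from it. On the other side of the limit, only 2 both-day regions reached their day 5 peak across a gap, of 102 bp at chrX:143030303-143032224 and 16 bp at chr4:133497687-133498882. The fold enrichments at the closest member were 2.49 in MEFs, 2.76 at day 10 and 3.45 in ESCs, and at the chromosome X region just outside 3.27, 2.94 and 3.96.

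In regions shared by all groups, the day 5 peaks were narrower and had lower q-value scores than the day 10 peaks. In the 14071 regions with a peak in all 4 lists, the median -log10 q was 6.06 at day 5 against 7.62 at day 10, 10.9 in MEFs and 5.84 in ESCs, and the median width of the widest peak was 815 bp at day 5 against 1000 bp at day 10, although median fold enrichment was 3.87 at day 5 and 3.64 at day 10. The mirror class, the 720 regions missing only at day 10, had low day 5 peaks, at a median percentile of 25.2. Its MEF peaks stood at 38.9 and its ESC peaks at 48.2. The part of these differences in the absence of a day 5 peak from the members was not tested.

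The numbering of the day 5 peaks differed around the members. Every listed peak carries a number that rises along the file, and the peak names carry the mark rp1, which is read here as replicate 1, although the sources do not say so. The day 5 list holds 36219 peaks and its highest number is 47377, so some numbers are not listed. Between the listed day 5 neighbours to the left and right of a member, at least 1 number was skipped in 1014 of 1478 cases, 68.6% (66.2 to 70.9). The same held for 53.4% (51.7 to 55.1) of the 3181 regions on neither day that could be placed, a difference of 15.2 points (Newcombe interval 12.2 to 18.1), and for 47.5% of the other regions that lacked a day 5 peak. A skipped number cannot be placed within its stretch, so it may lie anywhere between the neighbours, but the difference from the neither-day regions was also seen in short stretches: 24.3 points (16.2 to 32.1) where the neighbours were up to 30 kb apart, 18.4 (14.0 to 22.7) from 30 to 100 kb and 11.7 (7.36 to 15.9) beyond. Members near a start site had a skipped number in 71.4% (68.3 to 74.3) and those farther away in 64.4% (60.5 to 68.2). In the mirror class, day 10 numbers were skipped around 57.9% (54.2 to 61.4) of the regions missing only at day 10, against 46.2% (44.5 to 47.9) of the neither-day regions.

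**Figure D2:**
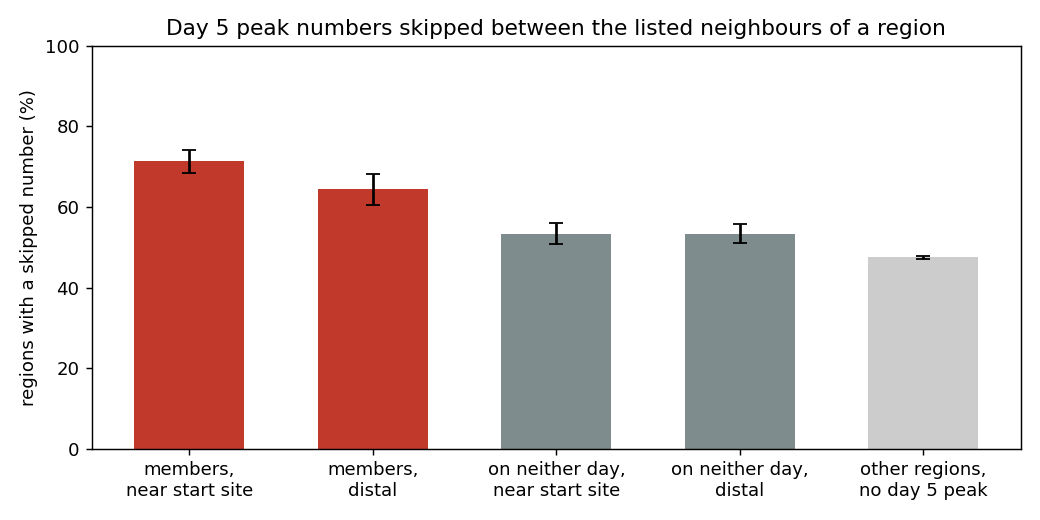
Share of regions (%, with 95% Wilson intervals) around which at least 1 day 5 peak number was skipped, for members (red) and neither-day regions (grey), each split by a start site within 5 kb, and for all other regions without a day 5 peak (light grey). Both member bars, at 71.4 and 64.4%, stand above the 3 others, which lie at 53.4, 53.4 and 47.5%.

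For the remaining 464 members (31.4%, 29.1 to 33.8), no number was skipped, so under this reading the replicate 1 day 5 calls held no further peak there. These 464 had peak heights close to those of the other 1014, with a median fold enrichment of 3.15 against 3.09 in MEFs, 3.06 against 3.07 at day 10 and 3.30 against 3.31 in ESCs. Fewer of them had a start site within 5 kb, 54.7% against 62.5%.

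Which regions fall into the class turned on the q-value score at which peaks were accepted. With only the higher-scoring 50% of each list, 1261 regions met the rule, and 68 of these overlapped a member while 1193 overlapped a region open on both days. Of the 1261, 89.6% had a start site within 5 kb. With every list cut to its 35226 highest-scoring peaks, the length of the shortest, 634 regions met the rule and 578 of them overlapped a member, which is 39.1% of the members.

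Members were less often at promoters than regions open throughout, and more often than regions without a peak on both OSKM days. A start site annotated in GENCODE lay within 5 kb of 888 members, 60.1% (57.6 to 62.5), against 85.8% (85.2 to 86.3) of both-day regions, 51.1% (47.5 to 54.7) of those missing only at day 10 and 44.2% (42.4 to 45.9) of neither-day regions. The members were thus at -25.7 points from the both-day regions (-28.3 to -23.1), 8.97 points above those missing only at day 10 (4.55 to 13.4) and 15.9 points above the neither-day regions (12.9 to 18.9). Closer in, 676 members (45.7%) lay within 1 kb of a start site and 562 (38.0%) contained one. Of the members beyond 1 kb, 384 had their midpoint in an intron, 359 between genes and 59 in an exon. The 590 distal members, with no start site within 5 kb, lay at a median of 14.5 kb from one.

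**Figure D3:**
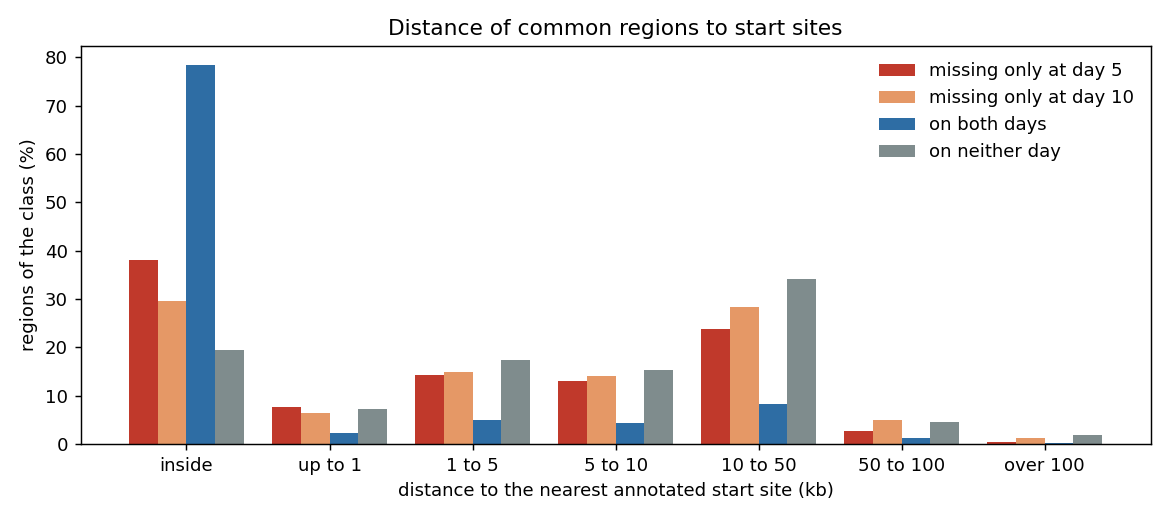
Distance from each common region to the nearest annotated start site, in kb, as the share (%) of each of the 4 classes of common regions. Of the members (red), 38.0% contain a start site and 23.7% lie 10 to 50 kb from one, and they take a middle position between both-day (blue) and neither-day (grey) regions.

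Peaks of members near start sites were wider and not higher than those of distal members. The median width was 752 bp against 631 bp in MEFs, 500 against 436 bp at day 10 and 616 against 538 bp in ESCs, and median fold enrichment was 3.09 against 3.14, 3.03 against 3.12 and 3.27 against 3.34 in the same order. Both kinds thus stood low in the day 10 list, at median percentiles of 29.3 and 35.4.

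The DNA of the members was less rich in CpG than that of regions open throughout. The 200 bp windows had a mean GC content of 55.4% (SD 9.89 over 1478 windows) against 61.8% (SD 11.0) in both-day regions and 51.0% (SD 9.44) in neither-day regions, while windows moved by 1 kb to each side had 47.8, 46.3 and 46.2%. CpG-rich windows, with over 50% GC and an observed to expected CpG ratio over 0.6, made up 26.9% (24.7 to 29.2) of the members, 61.4% of both-day, 20.1% of day-10-missing and 13.0% of neither-day regions. The gap was also seen near start sites. Among regions within 5 kb of a start site, 39.2% of the members were CpG-rich against 69.3% of both-day regions, a difference of -30.1 points (-33.3 to -26.7), and 24.5% of neither-day regions. Few windows were made mostly of repeats, 2.91% (2.17 to 3.90) of members against 1.51% of both-day and 4.96% of neither-day regions.

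Motifs were searched as exact letters on both strands of the 200 bp windows: AP-1 as TGACTCA or TGAGTCA, KLF as CCACACCC, CCACGCCC, CCCCACCC or CCCCGCCC, ETS as CCGGAAGT, TEAD as ACATTCCA, ACATTCCT, GCATTCCA or GCATTCCT, RUNX as TGTGGTTA or TGTGGTTT, SOX as CCATTGT or CCTTTGT, the E-box as CACGTG, NRF1 as GCGCATGCG, YY1 as AAGATGGCG, NFY as CCAAT, CRE as TGACGTCA, the octamer of OCT4 as ATGCAAAT, ESRRB as TCAAGGTCA and CTCF by its core. A window can hold several motifs, and a match describes these letters and no binding. With 14 motifs, 3 sets of regions and 3 comparisons, 126 differences were computed and 41 of their unadjusted 95% intervals did not hold 0.

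The CTCF core was found in 71 members, 4.80% (3.83 to 6.02), and in 0.271% of the windows 1 kb to either side. Among distal members it was in 46 of 590, 7.80% (5.90 to 10.2), against 4.04% of distal both-day regions, 3.75 points more (1.63 to 6.32), and 3.60% of distal neither-day regions, 4.20 points more (2.07 to 6.76). Distal regions missing only at day 10 had it in 6.25%, and the difference from the members, 1.55 points, had an interval of -2.03 to 4.76. Near start sites the share was 2.82% in members, 0.671% in both-day, 2.77% in neither-day and 4.62% in day-10-missing regions. The 71 members with a CTCF core had a median fold enrichment of 2.92 in MEFs, 3.18 at day 10 and 3.16 in ESCs, against 3.12, 3.06 and 3.31 in the other 1407, and day 5 numbers were skipped around all but 17 of them. The share depended on the regions and the window: it was 3.45% with windows on the ESC peak, 10.3% over whole regions, 2.05% with lists of equal length and 1.19% with the higher-scoring 50% of each list. These shares were computed for members only, so whether the differences from the other classes hold under them is not known. The 200 bp windows also cover unlike parts of the peaks. Median MEF peak width was 700 bp in members, 1150 bp in both-day and 569 bp in neither-day regions.

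AP-1 letters, the commonest motif of fibroblast enhancers in these windows, were less frequent in members than in regions without a peak on both OSKM days. AP-1 letters were in 53 of the 590 distal members, 8.98% (6.93 to 11.6), against 15.5% of distal neither-day regions, a difference of -6.48 points (-9.17 to -3.44). Distal both-day regions had them in 10.1%, and the interval of the difference, -3.58 to 1.76 points, held 0. Distal day-10-missing regions had them in 12.2%, and the interval of that difference, -7.58 to 0.739 points, also held 0. Near start sites, AP-1 letters were in 5.18% of members, 2.06% of both-day and 8.88% of neither-day regions. TEAD letters were in 7.46% of distal members and 9.39% of distal neither-day regions, a difference of -1.93 points (-4.28 to 0.791). RUNX letters were in 3.39% of distal members and 3.54% of distal neither-day regions. Over all members, near and distal, the differences from the neither-day regions were -5.86 points for AP-1 (-7.53 to -4.08), -2.21 for TEAD (-3.64 to -0.659) and -1.25 for RUNX letters (-2.11 to -0.284). Near start sites, RUNX letters were in 0.676% of members and 2.35% of neither-day regions, a difference of -1.67 points (-2.67 to -0.633), and for TEAD letters the difference there was -1.38 points (-3.11 to 0.490).

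KLF, ETS, NRF1 and YY1 letters were less frequent in members than in both-day regions. KLF letters were in 223 members, 15.1% (13.4 to 17.0), in 23.6% of both-day regions and in 9.86% of neither-day regions, and near start sites in 18.2% of members against 25.1% of both-day regions, a difference of -6.86 points (-9.38 to -4.07). ETS letters were in 10 members, 0.677%, against 2.62% of both-day and 0.220% of neither-day regions. NRF1 letters were in 3 members and YY1 letters in 4, which is 0.203% and 0.271% against 0.959% and 1.31% of both-day regions and 0.126% and 0.157% of neither-day regions. Near start sites, ETS, NRF1 and YY1 differed from both-day regions by -1.93, -0.739 and -1.15 points, and no interval held 0. Among distal regions the intervals held 0, at -0.959 to 0.350, -0.583 to 0.413 and -0.442 to 0.717 points. CRE letters were in 0.406% of members and 1.03% of both-day regions. ESRRB letters were in 0.474% and 0.199%, and in 0.677% of the members' flanking windows. The E-box of MYC was in 5.01% of members, 4.78% of both-day, 3.64% of neither-day and 2.36% of day-10-missing regions, and the difference from the last was 2.65 points (0.935 to 4.16). The octamer was in 10 members, 0.677%, against 0.775% of both-day and 1.26% of neither-day regions and 0.812% of the members' flanking windows. SOX letters were in 96 members, 6.50%, against 4.70% of both-day and 6.47% of neither-day regions and 5.89% of the flanking windows. The direction against both-day regions changed with position. Near start sites SOX letters were in 6.53% of members and 4.01% of both-day regions, a difference of 2.52 points (1.03 to 4.37). Among distal regions they were in 6.44% of members and 8.84% of both-day regions, a difference of -2.40 points (-4.56 to 0.161). NFY letters were in 283 members, 19.1% (17.2 to 21.2), and in 22.9% of the flanking windows.

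**Figure D4:**
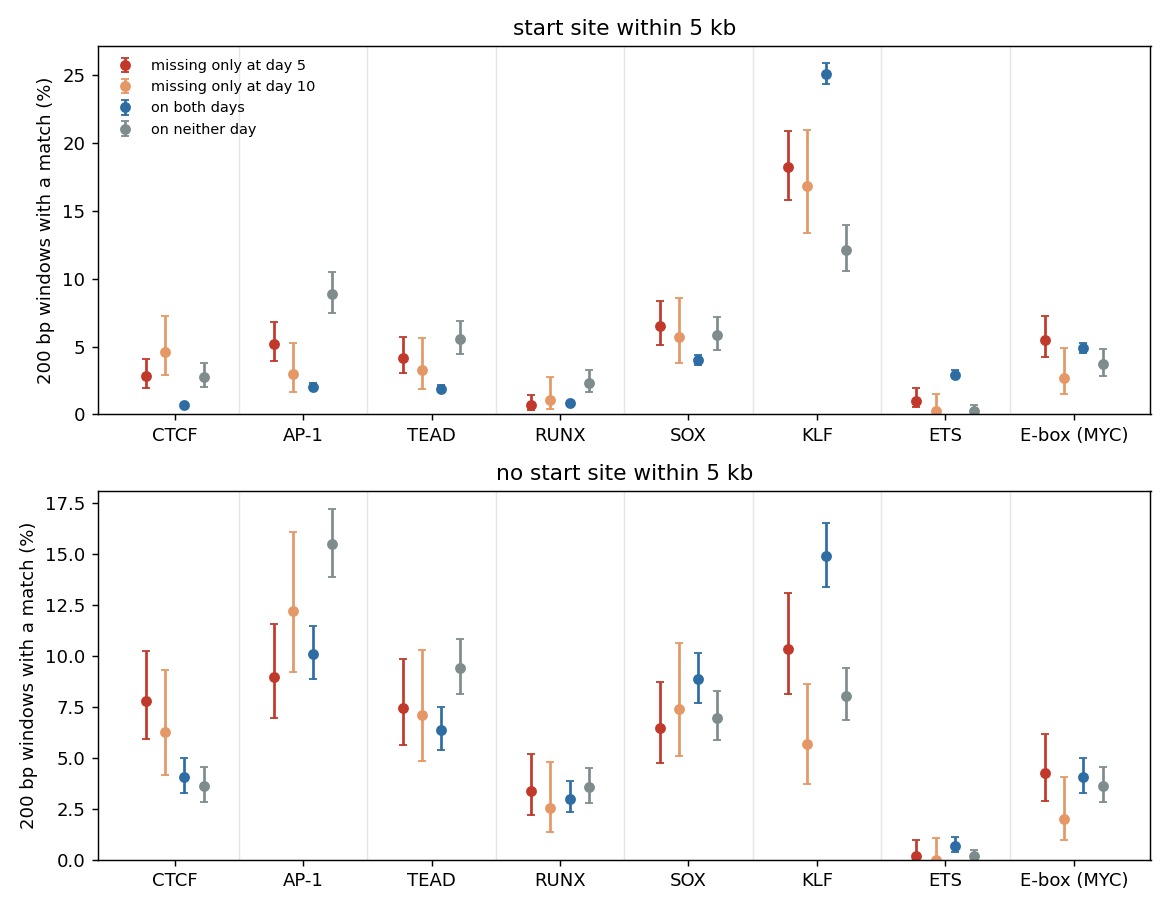
Share of 200 bp windows (%, with 95% Wilson intervals) that hold the letters of 8 motifs, for the 4 classes of common regions, split by a start site within 5 kb. Distal members (red, lower panel) hold the CTCF core in 7.80%, above the both-day (blue, 4.04%) and neither-day (grey, 3.60%) regions, and AP-1 letters in 8.98%, below the neither-day regions (15.5%).

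The best supported members were named by the lowest of their 3 percentiles. Of the distal members, the region with the highest support, 11292615 to 11293842 on chromosome 19, lay 8742 bp from Ms4a5, a membrane protein gene, and over a non-coding antisense gene. Its fold enrichment was 5.76 in MEFs, 4.19 at day 10 and 4.97 in ESCs, and no day 5 number was skipped around it. The next, in an intron of Sept10, a septin gene of the cytoskeleton (chr10:59149796-59150455), had 4.25, 4.08 and 4.49. Ripk4 and Pknox2, whose windows are printed above, followed with 4.23, 4.26 and 5.44 and with 4.41, 4.02 and 4.82. The member in an intron of Mrtfb, an SRF coactivator gene (chr16:13323598-13324164), held AP-1 and TEAD letters and had 4.24, 3.94 and 4.84, and the closest day 5 peak was 5964 bp away.

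The other 5 distal members are named by the nearest protein-coding start site. It lay 32483 bp away for Rassf8, 74007 bp for Gpc5, 47819 bp for Snx10, 14447 bp for Nedd4l and 30094 bp for Gadd45b. The Nedd4l region was in an intron of that gene and the Gadd45b region in an intron of Gng7. The region named for Gpc5, a glypican gene, was closer to Mir17hg, the host of the miR-17-92 cluster, at 24671 bp. Its fold enrichment was 4.54 in MEFs, 3.93 at day 10 and 4.38 in ESCs. Over these 10 regions, fold enrichment was 3.96 to 5.76 in MEFs, 3.85 to 4.26 at day 10 and 4.27 to 5.44 in ESCs. The day 10 value was thus never above the ESC value, and 3 of the 10, those near Ms4a5, in Nedd4l and near Gadd45b, had no day 5 number skipped around them.

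At start sites, the best supported member was at Baalc, 38938300 to 38939039 on chromosome 15, over the start of the antisense transcript Gm49097 and 4391 bp from the Baalc start. Its fold enrichment was 5.40 in MEFs, 4.34 at day 10 and 4.64 in ESCs, and the nearest day 5 peak was 66940 bp away with no number skipped. A pair of X-linked promoters followed with nearly even heights in the 3 groups. Hsd17b10, which encodes a mitochondrial dehydrogenase (chrX:152001477-152002556), had 4.77, 4.79 and 4.59, with 989 bp under all 3 peaks. Nxt2, a nuclear export factor (chrX:142227626-142228881), had 4.40, 4.21 and 4.74, held ETS, SOX and NFY letters, and lay 123543 bp from any day 5 peak with no number skipped. At both promoters the 3 listed heights lay within the narrow range of 4.21 to 4.79.

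Cacng2, a subunit partner of AMPA receptors in neurons, had 4.35, 4.58 and 5.61. Vstm2l was highest at day 10, with 4.29, 5.06 and 4.01. Nsrp1, a splicing regulator, had 4.14, 3.94 and 3.99 and held KLF, ETS and YY1 letters. Cyp4f16, Chst8, Traf3ip2 and Tmem28 completed the 10, with day 10 values from 3.88 to 4.30. The region named for Traf3ip2 was not at the promoter of that gene. It lay 8299 bp from the Traf3ip2 start and 428 bp from that of 2900078I11Rik. The 3 members with the longest stretch under all 3 peaks were low and broad: 2124 bp at Cxxc5, 1464 bp at Ntn1, the netrin gene, and 1363 bp at Cfap77, with fold enrichments between 2.36 and 3.52.

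**Figure D5:**
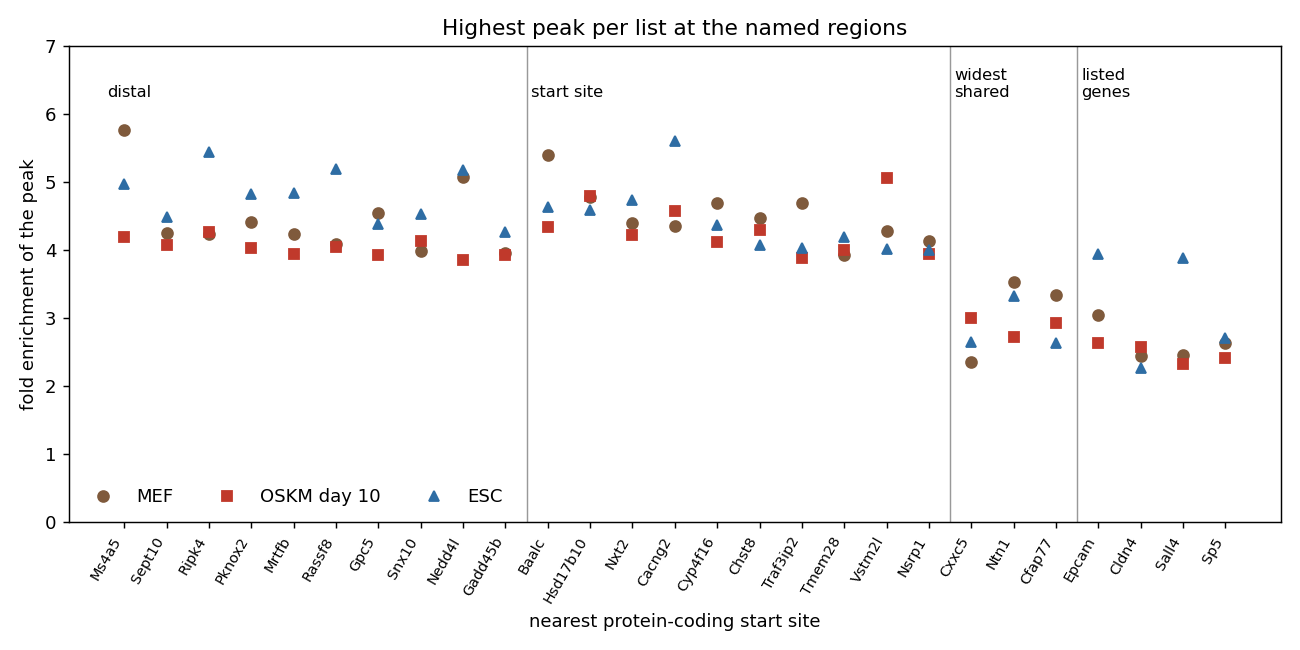
Fold enrichment of the highest peak in the MEF (circles), day 10 (squares) and ESC (triangles) lists at the 10 best supported distal members, the 10 best supported at start sites, the 3 with the longest shared stretch and 4 at listed genes, each labelled by the nearest protein-coding start site. The last 2 sets lie between 2.26 and 3.95, below nearly all of the first 20.

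Of 21938 protein-coding genes, 607 had a start site within 1 kb of a member, a background of 2.77%. The counts were 11587 (52.8%) for the both-day regions, 222 (1.01%) for those missing only at day 10 and 665 (3.03%) for the neither-day regions. For 131 of the 607 genes another start site lay within 1 kb of a region with a day 5 peak, so 476 had none at day 5. Among the genes of any kind near a member, 778 in all, 78.0% were protein-coding, against 39.6% of all annotated genes.

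Of 21 pluripotency and epithelial genes of the study, 3 had a member at a start site, 14.3% against the background of 2.77%. This list was chosen with earlier results of these data known, and the difference was not tested. All 3 genes were without another day 5 site: Epcam and Cldn4, which encode an adhesion molecule and a tight junction claudin of epithelia, and Sall4, a zinc-finger factor of ESCs. The 3 regions contained the start sites, at chr17:87636042-87636963, chr5:134945384-134947377 and chr2:168764847-168767269 in that order, and their peaks were low. No base lay under all 3 peaks of the merged Sall4 region, and 175 bp did at Epcam and 238 bp at Cldn4. Epcam had 3.04 in MEFs, 2.64 at day 10 and 3.95 in ESCs, Cldn4 had 2.44, 2.58 and 2.26, and Sall4 had 2.45, 2.32 and 3.88. The ESC peak was the highest at Epcam and Sall4 and the lowest at Cldn4. Of the 18 KLF and SP factor genes, 1 had a member, Sp5 (chr2:70474316-70476727), with 2.63, 2.42 and 2.70, and again with no base under all 3 peaks. No member lay within 1 kb of a start site of the 17 fibroblast and mesenchymal genes, the 18 cohesin, Mediator and CTCF genes, the 16 H3K27 methylation genes, the 12 DNA methylation genes, the 15 senescence and p53 genes, the 25 DNA replication and cell cycle genes or the 20 AP-1, TEAD and RUNX factor genes. In these 7 lists 81.2 to 100% of the genes were at a region open on both days, against 5 (23.8%) of the 21 pluripotency and epithelial genes.

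Gene families were matched by name, and their shares are to be read against the background of 2.77%. Of 39 Hox genes, 4 (10.3%) had a member at a start site, at 3 regions, since Hoxc10 and Hoxc5 share 1. Hoxc10 had a fold enrichment of 2.51 in MEFs, 2.91 at day 10 and 2.88 in ESCs, Hoxd13 2.76, 2.73 and 2.94, and Hoxd8 2.54, 2.67 and 2.93, so all were low and even. Of 84 ribosomal protein genes 3 (3.57%) had a member, Rpl36, Rpl8 and Rps4x, of 75 mitochondrial ribosomal protein genes 3 (4.00%), Mrpl28, Mrpl35 and Mrpl55, and of 371 solute carrier genes 11 (2.96%). Rps4x, on the X chromosome, was the highest of the ribosomal genes, with 4.27, 3.34 and 4.43. Reads in exons of ribosomal protein genes can be split with their processed copies. Exons covered 128 of 1760 bp at Rpl36, 417 of 575 bp at Rpl8 and 97 of 756 bp at Rps4x, and the part of such reads was not tested. Of 391 Zfp genes 9 (2.30%) had a member, 2 of 67 Hist genes, 2 of 68 tripartite motif genes (Trim69 and Trim71), 1 of 69 protocadherin genes (Pcdh1), and none of 39 proteasome subunit genes or 1093 olfactory receptor genes. These genes, apart from the families as such, were named after their values were seen.

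Members were spread over the genome. They made up from 5.48% of the common regions on chromosome 12 (4.08 to 7.33) to 9.27% on chromosome 6 (7.68 to 11.1) among the autosomes, and 9.11% on the X chromosome (6.88 to 12.0), against 7.60% of all common regions. Of these 3 unadjusted intervals, that of chromosome 6 lay above 7.60%, that of chromosome 12 lay below it, and that of the X chromosome held it. Few had another member nearby: 43 (2.91%) within 10 kb and 208 (14.1%) within 50 kb.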

How the data were processed

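ATAC-seq was done on 50000 cells per reaction. According to the labels and the methods, the authors mapped reads with bowtie2 in very sensitive mode to mm10 (Bowtie2 2.2.0 in the submitters' processing notes), removed reads below a mapping quality of 30 (labels) or 35 (methods), kept reads with a single position and removed mitochondrial reads. The peak caller and any transposase shift are not given in the sources used here. The authors deposited 1 list of peaks per group, with a score, a fold enrichment (a ratio to background), and a -log10 p-value and -log10 q-value per peak. In the deposited files the score is 10 times -log10 q and every q-value is under 0.1. No column belonged to another series (0 columns). Replicates are 2 libraries per group and nothing says that they came from separate animals. Depth is unknown from the lists.

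From these, peaks were merged within 400 bp (Python 3.11.15, pandas 2.3.3), placed against GENCODE M21 start sites (132629) and read from GRCm38.p6, the same build, with pysam 0.24.0. Shares have Wilson intervals and differences Newcombe intervals at 95%. Merging, numbering and motif search were tested on simulated data. Named were the 10 distal and 10 start-site members with the highest support (the lowest of the 3 percentiles), the 3 with the most bp under all 3 peaks, every gene of the symbol lists at a member, and 2 windows for each of 4 motifs, chromosome 18 left out. The members and lists were chosen with earlier results of these data known.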

Additional observations from a re-analysis of the deposited data

How the results depend on the processing

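The 10 results were recomputed under 15 alternatives, giving 87 values, of which 31 moved out of the 95% interval around the value given above, or by over 1.5 times for counts, and 56 did not. Merging at 0 or 1000 bp, leaving out chromosomes X and Y, or asking for 1 bp under all 3 peaks moved none of them. With the higher-scoring 50% of each list, 89.6% of the regions were within 5 kb of a start site, 1.19% held a CTCF, 2.62% an AP-1, 23.7% a KLF and 2.93% an ETS match, mean GC was 63.5% and 1125 genes were at a start site. With lists of equal length, the members numbered 634, with a CTCF match in 2.05% and a KLF match in 17.7%, a mean GC of 56.1%, a median day 10 percentile of 38.4 and 278 genes. The first of these chooses mostly other regions (68 of 1261 overlap a member) and the second mostly a subset of the members (578 of 634). Windows on the widest ESC peak gave 3.45% (CTCF), 4.80% (AP-1), 17.4% (KLF) and 56.1% GC, and windows on the day 10 peak gave 17.7% (KLF). Whole regions, which are longer, gave 10.3% (CTCF), 23.7% (AP-1), 55.3% (KLF), 3.72% (ETS) and 54.0% GC. A start site lay within 1 kb of 45.7% and within 10 kb of 73.1%. By -log10 q the median day 10 percentile was 26.0. The 464 members with no day 5 number skipped, a set added after seeing the data, had 54.7% near a start site, 3.66% with a CTCF match, 54.4% GC and 173 genes. The cause of these shifts was not tested where no construction is named. The skipped numbers were not computed for the 2 alternatives with shortened lists. All alternatives were computed for the members only, so the differences from the other classes were not recomputed. No paired analysis was possible because each group was deposited as 1 list, and for the same reason no replicate could be left out. Without read depth, a missing day 5 peak shows no closing of a site.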
